A study of Homo sapiens with 12 samples.

Results

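The glucocorticoid receptor gene NR3C1, the closely related mineralocorticoid receptor gene NR3C2 and 6 genes for coregulators of these receptors (NCOA1, NCOA2, NCOA3, NCOR1, CREBBP and EP300) were examined in multiple myeloma cells. These 8 genes were chosen by symbol from the 43735 entries of the raw count table, and all 8 passed the filter on low counts that left 14085 genes for testing. RNA sequencing was done on MM1S and MM1R, a pair of established human myeloma cell lines that the labels call glucocorticoid sensitive and glucocorticoid resistant. Each line was sampled untreated (UT) and after exposure to 1 µM withaferin A (WA), a steroidal lactone of the plant Withania somnifera, for 3 h. The labels name no glucocorticoid treatment in any group, and they do not say whether the untreated cells received a solvent.

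Each of the 4 groups held 3 cultures, named here by the P numbers of the sample titles, which were read as passage numbers. These were 16, 22 and 23 for MM1S and 4, 6 and 7 for MM1R. Each group therefore represents 1 cell line, and the lines were sampled at passages that never coincided, so line and passage number cannot be told apart. The libraries held between 17625110 and 19368343 reads counted to genes. All 10 plasma cell markers examined were above 1 CPM (counts per 1000000 reads, scaled for library composition) in every library, with summed levels of 11400 to 12900 CPM in untreated MM1S and 17500 to 19200 CPM in untreated MM1R. JCHAIN, at 5170 to 12700 CPM over all libraries, weighed most in these sums. Of the 10 markers, 1 was called higher and 1 lower in untreated MM1R, and 8 were not called (11.9% of all genes tested were called). Among markers of other cells, CR2 was present at 30.2 to 41.9 CPM and CD3E at 3.26 to 11.6 CPM. Of the 5 myeloid markers, MPO had no reads, ITGAM had at most 0.881 CPM and the summed level was at most 1.35 CPM in any library. Of the T and natural killer markers, NKG7 had no reads, CD8A had at most 8 and CD4 at most 4 in any library.

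NR3C1 encodes a receptor that waits in the cytoplasm in a complex with HSP90 and its co-chaperones, binds cortisol or drugs such as dexamethasone, and then moves to the nucleus and regulates genes at glucocorticoid response elements. There it recruits the p160 coactivators NCOA1 (SRC-1), NCOA2 (also called GRIP1) and NCOA3 (SRC-3), which bring in the histone acetyltransferases CREBBP (CBP) and EP300 (p300), whereas NCOR1 is the scaffold of a histone deacetylase corepressor complex. NR3C2 binds the same DNA element and also binds cortisol with high affinity. Glucocorticoids are used in myeloma, and in lymphoid and plasma cells a sufficient level of NR3C1 is needed for these drugs to kill the cell.

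On GRCh37, the build named in the processing notes, the GENCODE annotation places NR3C1 on the minus strand of chr5:142657496-142815077, with 9 exons in its canonical transcript. NR3C2 lies on the minus strand of chr4:148999913-149365850, also with 9 exons. Of the coregulators, NCOA1 lies at chr2:24714123-24993571, NCOA3 at chr20:46130631-46285621 and EP300 at chr22:41488596-41576081 on the plus strand, and NCOR1 at chr17:15932379-16121499 and CREBBP at chr16:3775055-3930714 on the minus strand. The read counts are totals per gene, so the alternative first exons and the alpha and beta splice forms for which NR3C1 is known are not separated. The 250 bases before the RefSeq start of both receptor genes (assembly GRCh38.p14, both on the minus strand, at chr5:143404483-143404732 and chr4:148442415-148442664) are shown because these were the 2 genes that were lower in untreated MM1R cells. Capitals mark CCAAT boxes (CCAAT) and GC boxes (GGGCGG), each searched on both strands.
NR3C1: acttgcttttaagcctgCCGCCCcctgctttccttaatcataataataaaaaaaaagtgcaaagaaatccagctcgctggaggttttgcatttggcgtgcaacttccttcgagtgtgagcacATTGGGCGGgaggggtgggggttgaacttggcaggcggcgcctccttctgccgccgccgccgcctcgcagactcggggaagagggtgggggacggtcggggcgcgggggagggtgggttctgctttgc
NR3C2: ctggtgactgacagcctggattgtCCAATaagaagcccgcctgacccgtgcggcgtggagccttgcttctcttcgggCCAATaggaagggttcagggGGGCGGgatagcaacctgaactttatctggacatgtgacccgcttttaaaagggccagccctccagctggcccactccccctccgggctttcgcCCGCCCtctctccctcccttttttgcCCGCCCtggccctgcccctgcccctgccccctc
In the NR3C1 window the inverted CCAAT box 128 bases before the start overlaps the GC box that begins 125 bases before it. RefSeq windows were found for 7 of the 8 genes, the one not matched being NCOA2. The CCAAT box was in 2 of these 7, NR3C1 and NR3C2, and in 32% of the 35116 windows of the same length. The GC box was in 4 of the 7, the receptor genes, NCOA1 and CREBBP, and in 42.6% of all windows. A glucocorticoid response element (GNACA, any 3 bases, TGTNC), a single receptor hexamer (AGAACA) and a heat shock element (GAA, any 2 bases, TTC, any 2 bases, GAA), searched on both strands, were in none of the 7. They were in 0.327%, 12.4% and 0.441% of all windows.

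To ask whether the receptor pathway differed between the sensitive and the resistant line before treatment, untreated MM1R cells were compared with untreated MM1S cells. NR3C1 was 7.76-fold lower in MM1R and NR3C2 was 1.81-fold lower, while none of the 6 coregulators passed the test. The 3 untreated MM1S cultures had NR3C1 levels of 151.7, 95.52 and 89.05 CPM at passages 16, 22 and 23, from 2929, 1849 and 1791 reads. The 3 untreated MM1R cultures had 14.42, 13.94 and 14.98 CPM at passages 4, 6 and 7, from 277, 254 and 257 reads. The groups did not overlap, and the lowest MM1S culture was far above the highest MM1R culture. In bulk RNA, fewer expressing cells and less RNA per cell cannot be told apart. Passage 16 stood above the other MM1S passages, at 1.59 times the level of passage 22 and 1.7 times that of passage 23, whereas the MM1R cultures had a coefficient of variation of only 3.62%.

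The log2 fold change of NR3C1 between the untreated lines was -2.96 (SE 0.225, 95% confidence interval -3.44 to -2.47; adjusted p = 2.15e-06, edgeR quasi-likelihood test with Benjamini-Hochberg adjustment over all genes tested). By p-value it was the 22nd of the 14085 genes. At adjusted p 0.05, 11.9% of all genes tested were called in this comparison, 5.5% as lower, against 2 of the 8 receptor and coregulator genes, both lower. At the stricter limit of adjusted p 0.01 with a log2 fold change over 1 in size, 2.97% of all genes were called, and of the 8 only NR3C1. Leaving out each library in turn gave log2 fold changes of NR3C1 between -3.1 and -2.68, all called. Without both passage 16 libraries of MM1S the value was -2.68 (edgeR adjusted p = 4.65e-08).

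**Figure D1:**
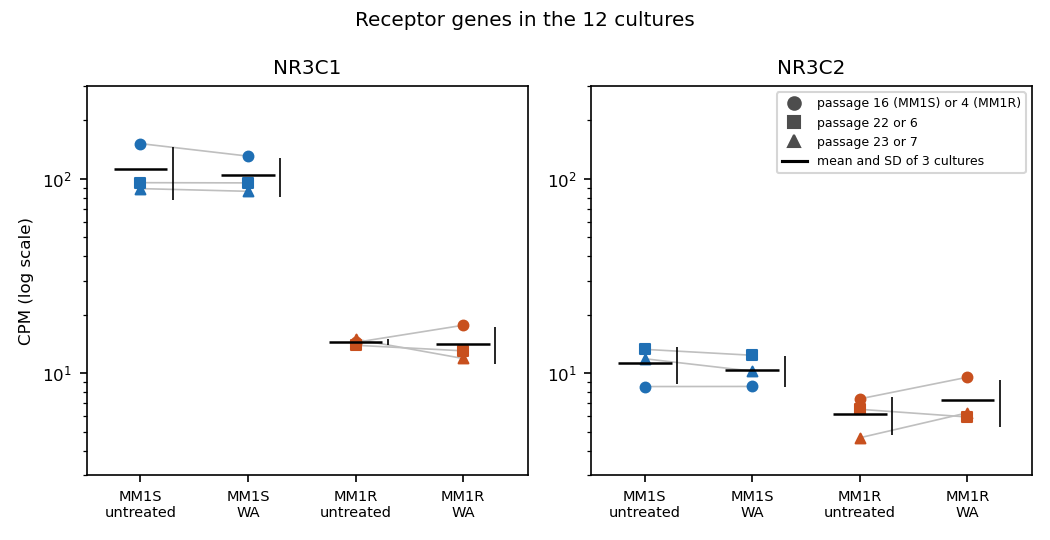
Levels of NR3C1 and NR3C2 in CPM (log scale) in the 12 cultures, with symbols for passages, grey lines joining the untreated and WA cultures of a passage, and black bars for the mean and SD of 3 cultures. NR3C1 lies between 86.24 and 151.7 CPM in the MM1S cultures and between 11.92 and 17.66 CPM in the MM1R cultures, and the untreated and WA cultures of each line overlap for both genes.

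NR3C2, the mineralocorticoid receptor gene, was expressed at a low level in both lines. Its untreated levels were 8.549, 13.28 and 11.88 CPM in MM1S passages 16, 22 and 23 and 7.392, 6.53 and 4.664 CPM in MM1R passages 4, 6 and 7. The groups did not overlap, but the gap between passage 16 of MM1S and passage 4 of MM1R was small. The log2 fold change was -0.86 (SE 0.242, 95% interval -1.38 to -0.34, edgeR adjusted p = 0.0352). This call was lost when 1 untreated library was left out, although the fold change moved less: -0.72 without MM1S passage 22 (edgeR adjusted p = 0.146), -0.81 without MM1S passage 23 (0.112), -0.92 without MM1R passage 6 (0.09) and -0.69 without MM1R passage 7 (0.133). MM1S passage 16, the culture with the most NR3C1, had the least NR3C2 of its group, both untreated and with WA.

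The 6 coregulators differed less between the untreated lines. NCOR1, the corepressor scaffold, was at 213.8, 208.9 and 219.8 CPM in MM1S and at 189.7, 181.9 and 175.5 CPM in MM1R. All 3 MM1R cultures were below all 3 MM1S cultures, yet the log2 difference of -0.23 did not pass the test (95% interval -0.50 to 0.03, edgeR adjusted p = 0.255). Groups that did not overlap were found for 3 of the 8 genes, NR3C1, NR3C2 and NCOR1, and for 32.3% of all genes tested. For NCOA2 the fitted log2 difference was -0.34 (95% interval -0.74 to 0.05), and for EP300 it was -0.14 (95% interval -0.45 to 0.17). NCOA1, NCOA3 and CREBBP had fitted log2 differences between -0.04 and 0.07, with intervals that lay within -0.37 and 0.51. The signs of NCOA1, NCOA3, CREBBP and EP300 depended on single libraries or on the correction for gene length. Over the 8 genes, the 2 receptors included, the median of the fitted log2 differences was -0.19, against 0.01 over all genes tested. Over the 5446 tested genes with at least 6000 exonic bases, to which all 8 belong, the median was -0.07 and 7.88% were called lower.

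**Figure D2:**
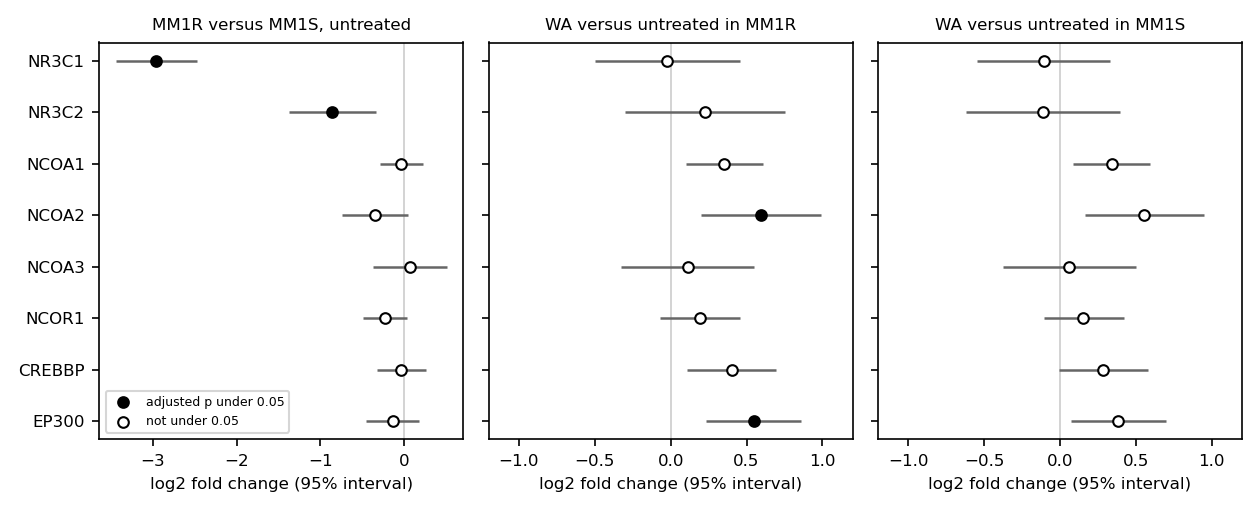
Fitted log2 fold changes with 95% confidence intervals (edgeR) for the 8 genes in 3 comparisons, with filled points for adjusted p under 0.05 and open points otherwise (the left panel has a wider axis). NR3C1 at -2.96 stands apart in the comparison of the lines, and NCOA2 at 0.60 and EP300 at 0.55 are the 2 filled points for WA in MM1R.

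Among the untreated MM1R cultures, passage 7 had the lowest level of 6 of the 8 genes (NR3C2, NCOA2, NCOA3, NCOR1, CREBBP and EP300) and passage 4 the highest level of the same 6. The other 2 genes, NR3C1 and NCOA1, were highest at passage 7. The spread was widest for NCOA3, at 109.4, 89.78 and 54.28 CPM for passages 4, 6 and 7. The merged exons of the 8 genes span 6607 to 15620 bases, so all belong to the 5446 tested genes with at least 6000 exonic bases. Over those long genes the median deviation of untreated MM1R passage 7 from the mean of all libraries was -0.115 (log2), against -0.0295 to 0.0926 in the other 11 libraries. The part of this shift in the low values of that culture was not tested. Results are therefore given also without both passage 7 libraries and with a correction for gene length.

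Per kilobase of exon the genes can be ranked within a group (RPKM, the CPM divided by the exon length in kilobases). Order and overlap between genes hold only for the merged exon lengths used, since the gene models counted are not known. CREBBP has 15479 bases of merged exons and 10790 in its canonical transcript, and NCOA2 has 10009 and 8430. With canonical lengths these 2 genes would change places in untreated MM1S. In untreated MM1S, NR3C1 was the third of the 8 at 12.2 ± 3.76 RPKM (SD, n = 3), after NCOR1 at 13.7 ± 0.35 RPKM and EP300 at 12.5 ± 0.774 RPKM, and the ranges of these 3 genes overlapped. NCOA3 followed at 9.57 RPKM, overlapping with NR3C1, and then NCOA2 at 7.47, CREBBP at 6.35, NCOA1 at 4.25 and NR3C2 at 1.7 RPKM, none of which overlapped with its neighbour. In untreated MM1R, NR3C1 was the seventh at 1.58 ± 0.0571 RPKM, below NCOA1 at 4.14 RPKM and above NR3C2 at 0.938 RPKM, without overlap on either side. The other 5 coregulators ran from NCOR1 at 11.7 RPKM to NCOA2 at 5.88 RPKM, and each overlapped with the next in order.

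The ratio of the 2 receptors within a library also differed between the lines. It was computed from the same values as the differences of both genes given above, so it is no separate test. Untreated MM1S cultures had 12.8, 5.19 and 5.4 times as much NR3C1 as NR3C2 per kilobase at passages 16, 22 and 23. In untreated MM1R cultures the ratio was 1.41, 1.54 and 2.32 at passages 4, 6 and 7, so NR3C1 remained the more abundant of the receptors in every library. The ratio ranges did not overlap (two-sided exact permutation test, p = 0.1, the smallest that 3 against 3 cultures allow).

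The genes nearest to NR3C1 on chromosome 5 were NDFIP1, SPRY4 and ARHGAP26 on one side and YIPF5, PRELID2 and RBM27 on the other, counting tested genes. This window of 3 genes on either side was set after the values were seen, and genes farther out are not reported here. The flanking genes ARHGAP26 and YIPF5, the latter encoding a Golgi membrane protein, had log2 differences of -0.22 (SE 0.133) and 0.34 (SE 0.116) between untreated MM1R and MM1S. The other 4 ranged from -0.31 (SE 0.165) for PRELID2 to 0.94 (SE 0.51) for SPRY4, a gene with a mean of 1.41 CPM or less in the untreated groups. None of these 6 was called (edgeR adjusted p from 0.0761 for YIPF5 to 0.702 for RBM27; 11.9% of all genes tested were called). DNA copy number was not measured.

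**Figure D3:**
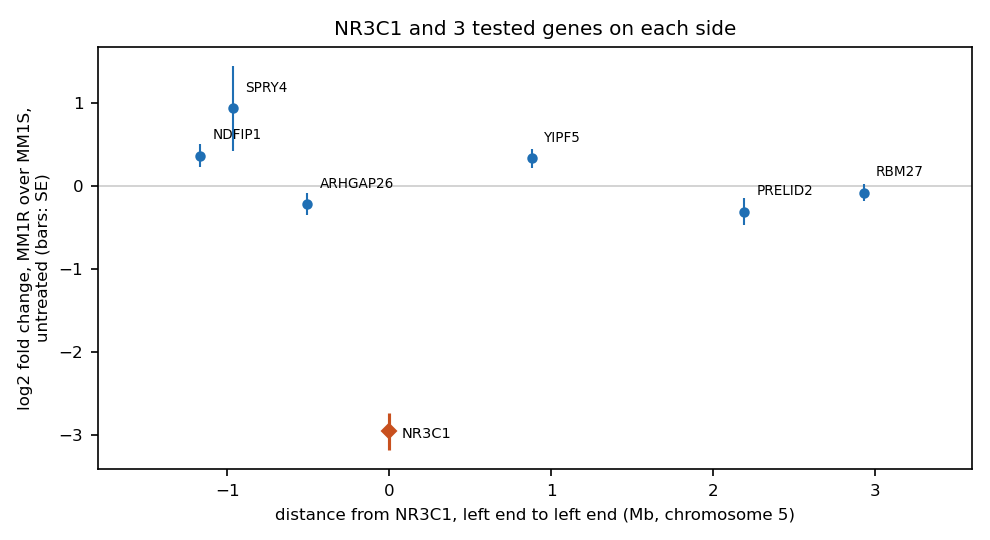
Log2 fold change between untreated MM1R and MM1S cells (points, with SE as bars) for NR3C1 and 3 tested genes on each side of it, against the distance along chromosome 5 in megabases. NR3C1 lies at -2.96 while the 6 neighbours lie between -0.31 and 0.94.

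The profile of NR3C1 over the 12 libraries, as log2 CPM centred on its own mean, was compared with that of the 12314 genes with a mean of at least 1 CPM. GPC4, a cell surface heparan sulfate proteoglycan, was the most alike, with a root mean square difference of 0.245, against a median of 1.49 over all genes compared. A flat profile would give 1.47, the root mean square of NR3C1 about its own mean. It was at 27.7 CPM in untreated MM1S and 3.47 CPM in untreated MM1R. The next 4 were FRG1EP at 0.352, TFCP2 at 0.365, ZNF385B at 0.394 and ZNF655 at 0.402. All 5 were lower in untreated MM1R, with log2 fold changes from -2.43 for ZNF385B to -3.49 for ZNF655. Their choice by likeness to NR3C1 in these libraries fixed that direction, so it is no separate result. TFCP2 was called higher with WA in MM1R (log2 fold change 0.85, edgeR adjusted p = 0.0361), at low mean levels of 1.16 CPM untreated and 2.08 CPM with WA. NR3C1 was not called there, and the responses of these genes were not tested against each other.

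To ask whether WA altered the receptor pathway in the resistant line, treated MM1R cells were compared with untreated MM1R cells. NR3C1 stayed low. It was at 17.66, 13.05 and 11.92 CPM with WA at passages 4, 6 and 7, a range that enclosed the 3 untreated values. The log2 fold change was -0.02, with a 95% interval from -0.50 to 0.45 (edgeR adjusted p = 0.97). The pairs of the same passage moved in opposite directions, up by 0.28 (log2) at passage 4 and down at passages 6 and 7. NR3C2 was at 9.548, 5.964 and 6.267 CPM with WA, overlapping with the untreated cultures (log2 fold change 0.23, 95% interval -0.30 to 0.76).

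WA raised the coactivator gene NCOA2 and the acetyltransferase gene EP300 in MM1R. NCOA2, which encodes a p160 coactivator that also serves as a corepressor for some receptor targets, went from 74.13, 61.79 and 40.64 CPM untreated to 89.83, 99.08 and 77.88 CPM with WA at passages 4, 6 and 7. All 3 treated cultures were above all 3 untreated ones, with a log2 fold change of 0.60 (SE 0.184, edgeR adjusted p = 0.0457). EP300 went from 160.8, 133.3 and 104.5 CPM to 177.8, 224.6 and 180.2 CPM. Again the groups did not overlap, with a log2 fold change of 0.55 (SE 0.146, edgeR adjusted p = 0.0236). These 2 of the 8 genes stand against 14% of all genes tested that were called in this comparison, 7.55% as higher.

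Cultures of the same line and passage deviated together, though for MM1S passage 22 (correlation 0.267) less than unmatched passages 22 and 23 (0.426 and 0.531). The passage number was also used as a replicate block. With it, 4 of the 8 genes were called in MM1R, all higher, against 29.1% of all genes tested and 14.7% as higher. The added genes were NCOA1 and CREBBP. NCOA1 was at 36.7, 37.04 and 37.9 CPM untreated and at 42.03, 51.65 and 49.04 CPM with WA (blocked log2 fold change 0.35, adjusted p = 0.0363; 0.0629 without the block, both edgeR). CREBBP was at 109.7, 97.57 and 80.46 CPM untreated and at 119.8, 138 and 122.8 CPM with WA (blocked log2 fold change 0.41, adjusted p = 0.00919; 0.0647 without the block, both edgeR). For both genes the treated cultures were all above the untreated ones. Groups that did not overlap were found for 4 of the 8 genes and for 33.3% of all genes tested.

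The size of these increases rested partly on passage 7, the untreated culture with low values. Within pairs, NCOA2 was higher with WA by 0.28, 0.68 and 0.93 (log2) at passages 4, 6 and 7, and EP300 by 0.15, 0.75 and 0.78. Without both passage 7 libraries neither gene was called (NCOA2 log2 fold change 0.50, edgeR adjusted p = 0.0952; EP300 0.47, edgeR adjusted p = 0.0873), and 639 of the genes tested were called in place of 1973. The NCOA2 call was lost in 8 of the 12 fits that left out 1 library (untreated MM1S passage 22 or 23, treated MM1S passage 22, untreated MM1R passage 6 or 7, or any treated MM1R culture), with edgeR adjusted p from 0.0528 to 0.139. Over the 12 fits its log2 fold change ran from 0.386, without untreated passage 7, to 0.793. The EP300 call was lost in 3 of these fits, those without untreated passage 6 (0.078), untreated passage 7 (0.088) and treated passage 6 (0.0897) of MM1R, all by edgeR adjusted p. With the correction for gene length and the block together, NCOA2, CREBBP and EP300 were called (edgeR adjusted p = 0.00232, 0.0304 and 0.00526) and NCOA1 was not (0.0737).

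**Figure D4:**
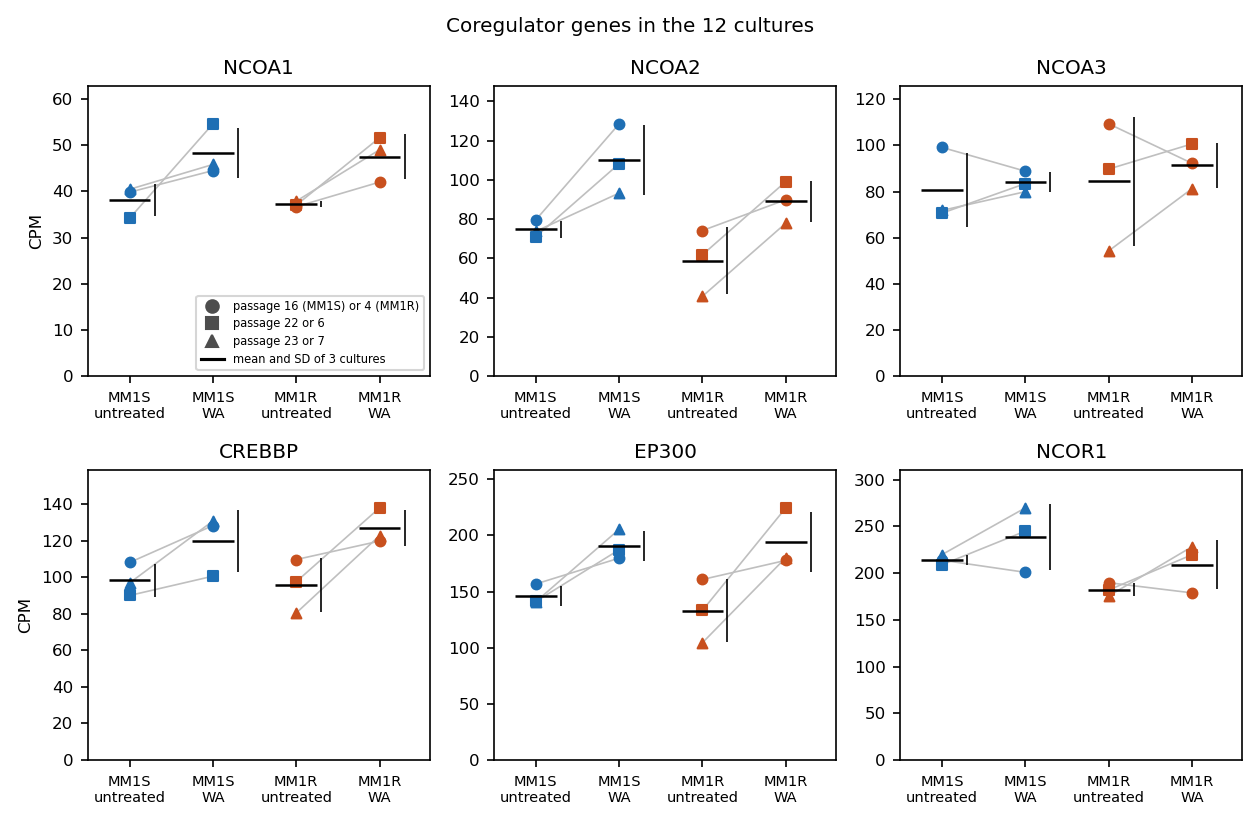
Levels of the 6 coregulator genes in CPM in the 12 cultures, with symbols for passages, grey lines joining the untreated and WA cultures of a passage, and black bars for the mean and SD of 3 cultures. For NCOA1, NCOA2, CREBBP and EP300 every grey line rises, whereas for NCOA3 and NCOR1 the lines of passages 16 and 4 fall and the others rise.

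In MM1S cells none of the 8 genes was called with WA, against 10.5% of all genes tested. With an unadjusted p under 0.05 there were 3 of the 8 and 24.9% of all genes, and DESeq2 called 1, NCOA2. NR3C1 was at 130.8, 95.28 and 86.24 CPM with WA at passages 16, 22 and 23, overlapping with the untreated cultures. The log2 fold change was -0.11, with a 95% interval from -0.55 to 0.33 (edgeR adjusted p = 0.81). NR3C2 was at 8.56, 12.38 and 10.26 CPM with WA, within its untreated range (log2 fold change -0.11, 95% interval -0.62 to 0.40).

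With the replicate block, 3 of the 8 genes were called in MM1S, all higher, against 24.1% of all genes and 12.5% as higher. NCOA2 went from 79.58, 71.03 and 73.73 CPM to 128.5, 108.2 and 93.23 CPM (blocked log2 fold change 0.55, edgeR adjusted p = 0.00531; 0.0692 without the block). EP300 went from 156.8, 141.2 and 141 CPM to 179.8, 187.3 and 205.5 CPM (blocked log2 fold change 0.38, edgeR adjusted p = 0.0317; 0.113 without the block). NCOA1 went from 39.84, 34.2 and 40.47 CPM to 44.53, 54.66 and 45.85 CPM (blocked log2 fold change 0.34, edgeR adjusted p = 0.0463; 0.0847 without the block). For these 3 genes every treated culture was above every untreated one, as for 30.3% of all genes tested. With the length correction added to the block, only NCOA2 was called (edgeR adjusted p = 0.00639).

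CREBBP in MM1S was higher with WA in 3 of 3 pairs, but its groups overlapped and it was not called with the block (log2 fold change 0.28, edgeR adjusted p = 0.0598). NCOA3 and NCOR1 were not called in either line, with or without the block. NCOA3 had log2 fold changes of 0.11 in MM1R (95% interval -0.33 to 0.55) and 0.06 in MM1S (95% interval -0.38 to 0.50). For NCOR1 the values were 0.20 (95% interval -0.07 to 0.46) and 0.16 (95% interval -0.11 to 0.42). Both genes were lower with WA at passage 4 of MM1R and passage 16 of MM1S and higher in the other 4 pairs.

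The share of NCOA2 within the p160 family was computed after its rise with WA had been seen, so it describes the same observation within each library and is no separate test. NCOA2 made up 30.2, 29.4 and 27.6% of the summed NCOA1, NCOA2 and NCOA3 level per kilobase in untreated MM1R passages 4, 6 and 7, and 36.5, 35.8 and 34% with WA. In MM1S it made up 32.9, 36.8 and 36.1% untreated and 45.3, 40.3 and 38.9% with WA at passages 16, 22 and 23. In both lines the treated shares were all above the untreated ones. The untreated shares of MM1R were all below those of MM1S. EP300 was more abundant per kilobase than CREBBP in all 12 libraries, by 1.72 to 2.47 times.

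The effect of WA was then compared between the lines. None of the 8 genes, and none of all genes tested (0%), was called for a different response in MM1R and MM1S with edgeR. At an unadjusted p under 0.05 there were 97 genes (0.689%) and none of the 8, and DESeq2 called 1 gene, also none of the 8. The fitted difference in the log2 response, MM1R minus MM1S, was 0.09 for NR3C1 (95% interval -0.56 to 0.73), 0.04 for NCOA2 (-0.52 to 0.59) and 0.16 for EP300 (-0.28 to 0.61). The widest interval was that of NR3C2, from -0.39 to 1.07 around 0.34. These intervals leave room for differences of the size of the WA responses themselves.

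Between the lines under WA, NR3C1 was the only one of the 8 genes called, against 12% of all genes tested and 5.66% as lower. It was 7.31-fold lower in MM1R (log2 fold change -2.87, SE 0.225, edgeR adjusted p = 3.08e-06). NR3C2 was not called (log2 fold change -0.52, 95% interval -1.03 to 0.00127, edgeR adjusted p = 0.179), and its groups overlapped, since MM1R passage 4 with WA lay above MM1S passage 16 with WA. The 6 coregulators had fitted log2 differences between -0.31 for NCOA2 and 0.12 for NCOA3. Only NR3C1 had groups that did not overlap, against 29.1% of all genes tested.

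Other genes of the receptor pathway were followed in lists drawn up by function. Receptor maturation depends on chaperones, and 11 of the 15 tested genes of the chaperone cycle rose with WA in each line, against 7.55% of all genes called as higher in MM1R and 10.5% called in either direction in MM1S. The list median on the log2 scale was 1.13 in MM1R and 1.18 in MM1S, against 0.01 over all genes in both. HSP90AA1, which encodes the inducible HSP90 that holds the receptor in its ligand-binding form, rose by a log2 fold change of 3.69 in MM1R and 3.51 in MM1S. DNAJA1, an HSP40 co-chaperone, rose by 2.02 and 1.88, its relative DNAJB1 by 5.40 and 4.91, and HSPA8, the constitutive HSP70 that first binds the unfolded receptor, by 1.75 and 1.78. PPID, a cyclophilin of the receptor complex, rose by 1.17 and 1.24. STUB1, a ubiquitin ligase that marks chaperone clients for degradation, fell in both lines (log2 fold changes -0.38 and -0.41, edgeR adjusted p = 0.0495 and 0.0438), and PPP5C, a phosphatase of the complex, fell in MM1R (-0.45, edgeR adjusted p = 0.0375) and had a value of -0.33 in MM1S (adjusted p = 0.132, or 0.0101 with the block). None of the 15 was called between the untreated lines.

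Of 16 tested coactivators outside the 8 genes, 11 were not called with WA in either line. In MM1R 4 fell and none rose, against 14% of all genes called, and in MM1S 3 fell and 1 rose, against 10.5%. The list medians were -0.21 and -0.17 on the log2 scale. NCOA5, first described as an estrogen receptor coactivator, fell by 0.51 on the log2 scale in both lines (edgeR adjusted p = 0.0121 and 0.0156). PRMT1, an arginine methyltransferase that modifies histone H4, had log2 fold changes of -0.59 and -0.55, and CCAR1, a coactivator that bridges receptors to Mediator, -0.59 and -0.53, all called. PPARGC1B fell in MM1R (-0.47, edgeR adjusted p = 0.0453), and PPARGC1A, a regulator of mitochondrial genes, rose in MM1S (0.87, edgeR adjusted p = 0.0418) and had a value of 0.74 in MM1R (0.0718). NCOA7, picked out after its values were seen, had log2 fold changes of 0.68 in MM1R and 0.58 in MM1S (edgeR adjusted p = 0.0502 and 0.101, or 0.00585 and 0.0127 with the block). No coactivator of the list was called between the untreated lines.

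Of 9 tested partners of the corepressor complexes and of 9 tested SWI/SNF remodelling subunits, 1 each was called between the untreated lines, a share near the 11.9% of all genes. With WA in MM1R, 0 of the 9 partners and 1 of the 9 subunits were called, against 14% of all genes. In MM1S, 1 of the 9 partners and 1 of the 9 subunits were called with WA, against 10.5%. TBL1X, a subunit of the NCOR1 complex, was higher in untreated MM1R (log2 fold change 0.70, edgeR adjusted p = 0.00247). SIN3A, the scaffold of another deacetylase complex, fell with WA in MM1S (-0.42, edgeR adjusted p = 0.0461), with a value of -0.40 in MM1R (adjusted p = 0.05, or 0.00936 with the block). Among the remodelling subunits, PBRM1 was lower in untreated MM1R (-0.62, edgeR adjusted p = 0.0199). SMARCC2 fell with WA in MM1R (-0.31, edgeR adjusted p = 0.0496) and had a value of -0.29 in MM1S (0.0728). SMARCA4, a remodelling ATPase, fell in MM1S (-0.36, edgeR adjusted p = 0.0444) and had a value of -0.31 in MM1R (0.068). None of these genes was called for a difference between the lines in the WA response.

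**Figure D5:**
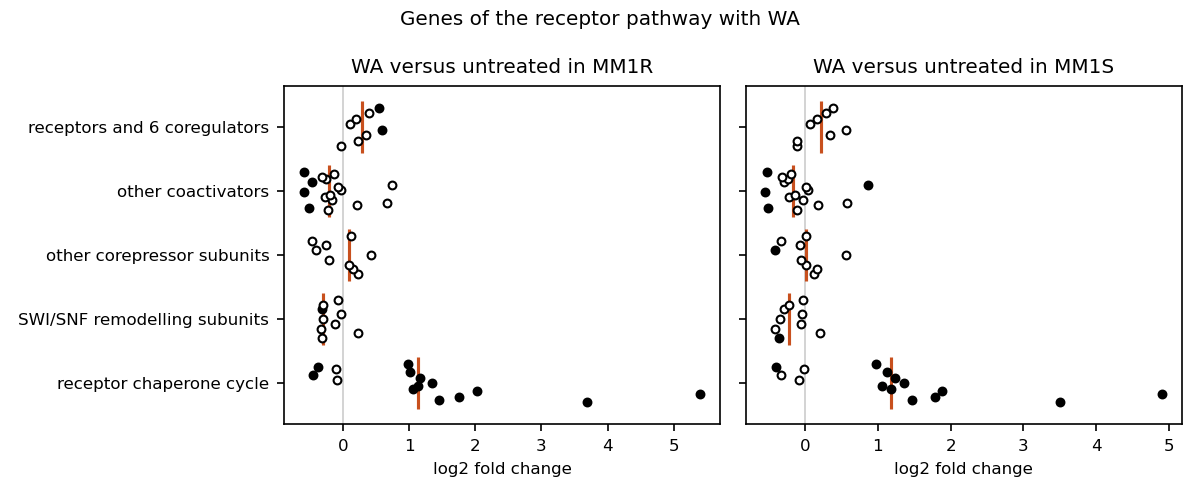
Log2 fold change with WA of each tested gene in the receptor pathway lists (1 point a gene, filled where adjusted p was under 0.05, orange bar for the list median), in MM1R on the left and MM1S on the right. The chaperone genes extend to 5.40 (DNAJB1, MM1R), the receptors and 6 coregulators lie mostly above 0 and the other coactivators mostly below 0.

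The genes that set steroid access, and the other steroid receptors, had few reads. HSD11B1, which regenerates cortisol from cortisone, had 0 or 1 reads in each untreated MM1S library and 7 to 22 in each untreated MM1R library (edgeR adjusted p = 0.00654). Its untreated MM1S libraries could not have passed the filter on low counts, so HSD11B1 was tested only through its reads in other groups. That adjusted p is therefore no separate support for the difference. ABCB1, an efflux pump that can export glucocorticoids, had 4 to 21 reads in untreated and 30 to 92 reads in treated MM1R libraries (edgeR adjusted p = 0.0148). HSD11B2 was not called in any comparison. Of PGR, ESR1 and ESR2, none was called between the lines, and PGR rose with WA in MM1S, from 0 to 15 reads untreated to 18 to 112 reads treated (edgeR adjusted p = 0.0254). Its 11 to 19 untreated and 49 to 64 treated reads in MM1R were not called without the block (edgeR adjusted p = 0.0807, or 0.00131 with it).

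Genes known as glucocorticoid targets were read out without added glucocorticoid. Of 11 tested, 1 was higher and 1 lower in untreated MM1R, a share near the 11.9% of all genes. PER1, a clock gene, had a log2 fold change of 0.70 (edgeR adjusted p = 0.0137). ZBTB16, a transcriptional repressor, had 4 to 41 reads in untreated MM1S libraries and 0 or 1 in untreated MM1R libraries (edgeR adjusted p = 0.00312). Its untreated MM1R libraries could not have passed the filter on low counts, so ZBTB16 was tested only through its reads in other groups. That adjusted p is therefore no separate support for the difference. With WA, 4 rose and 1 fell in MM1R, against 14% of all genes called. TSC22D3 (GILZ), an anti-inflammatory leucine zipper protein, rose there by a log2 fold change of 3.28, and DDIT4, an inhibitor of mTORC1, by 3.66 (NR3C1 averaged 14.2 CPM in those cultures). In MM1S these 2 of the 11 were called, at 2.74 and 3.56, against 10.5% of all genes. DUSP1 and KLF9 rose in MM1R (edgeR adjusted p = 0.00765 and 0.0173) and had log2 fold changes of 1.07 and 0.49 in MM1S (edgeR adjusted p = 0.177 and 0.309). TXNIP fell in MM1R (-0.78) and had a value of -0.63 in MM1S (edgeR adjusted p = 0.107, or 0.000691 with the block). None of the 11 was called for a difference between the lines.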

How the data were processed

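RNA of 12 cultures was sequenced as paired-end reads. According to the processing notes, the authors checked reads with FastQC (0.11.5) and aligned them with STAR (2.7.3a) to hg19, and the deposited raw counts are whole reads per gene symbol. The gene models and the use of strand are not given in the sources used here, so antisense and overlapping genes, and genes with near-identical copies such as HSP90AA1 and HSPA8, are less certain. A second deposited table of normalized values was not used. Groups came from the sample labels, and the study's methods describe 3 biologically independent samples.

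Counts were fitted with edgeR 4.0.16 (R 4.3.3, limma 3.58.1): genes with low counts were removed (filterByExpr, minimum count 10), libraries scaled by TMM, and 1 quasi-likelihood model with 4 groups fitted to the 12 libraries, with Benjamini-Hochberg adjustment over 14085 genes. CPM values use TMM-scaled library sizes, and RPKM uses exon-union lengths of the GENCODE annotation on GRCh37. Depth had a median of 18555625 reads, which limits genes with few reads such as NR3C2. DESeq2 1.42.0, other filters and scalings, a replicate block, single libraries left out and a length offset (a spline with 4 degrees of freedom, 89.4% of tested genes having a length) were the alternatives. The offset and the omission of both passage 7 or both passage 16 libraries were added after seeing the data.

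Untreated and WA cultures of the same passage deviated together over genes, so cultures of a line sharing this number were taken as pairs. Their correlations were 0.817, 0.267 and 0.558 for MM1S passages 16, 22 and 23, and 0.472, 0.309 and 0.305 for MM1R passages 4, 6 and 7. Unmatched MM1S passages 22 and 23 also correlated (0.426 and 0.531), above the matched pair of passage 22, while the other unmatched pairs were at most 0.0801. The code was checked on simulated counts with 3-fold changes. False calls were 3.01 to 3.98% of the calls with edgeR without the block or length offset. With DESeq2 they were 11.2 to 13%, so calls made only by DESeq2 are less certain. The simulated counts held no passage effect, so the block was not checked on paired cultures. The 8 genes and the lists were chosen with earlier results of these data known. All 8 genes are named. From each list, up to 4 called genes with the smallest p are named, and 5 genes by the smallest root mean square difference from NR3C1. STUB1, PPP5C and TXNIP were named after their values were seen. CEBPD was not tested because of low counts. EHMT2, GPS2, SMARCB1 and HSPA1A were not tested: the entries with these symbols had at most 1 read in any library, the table holds further numbered entries for them that were not used, and their low counts say nothing of expression. Some genes of the lists and of the region around NR3C1 are not reported here.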

Additional observations from a re-analysis of the deposited data

How the results depend on the processing

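The lower NR3C1 level in MM1R was called under every alternative, with log2 fold changes from -2.98 to -2.68 untreated and -2.88 to -2.68 with WA, and from -3.1 to -2.68 and -3.06 to -2.68 when single libraries were left out. The calls of NR3C2, NCOA2 and EP300 were not stable. With passage as replicate block, the genes called for WA numbered 4094 in MM1R and 3399 in MM1S (3424 and 2930 with DESeq2), and 4640 and 3765 with the length offset added. Of the 8 genes, the block called 4 in MM1R and 3 in MM1S (4 and 2 with DESeq2, and 1 in MM1S with the length offset added), and it called none for the difference between lines with edgeR. For that difference over all genes, DESeq2 called 1, DESeq2 with the block 6, and edgeR without a filter on low counts 11. Without both MM1R passage 7 libraries, 1021 genes and 1 of the 8 were called between the untreated lines, 639 and 0 for WA in MM1R, and 1 of the 8 for WA in MM1S. Without both MM1S passage 16 libraries, 690 genes were called for WA in MM1S and 3384 between the lines with WA. At adjusted p 0.01 the counts were 680 (1 of the 8), 812 (0 of the 8), 556 and 696 for the untreated lines, WA in MM1R, WA in MM1S and the lines with WA. Adding a log2 fold change over 1 left 419 (1 of the 8) and 428 between the lines. Of the 8 genes, 4 were called for WA in MM1R with at least 10 reads required in every library, 4 with DESeq2 and 1 with only the 6 libraries compared. In MM1S it was 1 without a filter, 1 with DESeq2 and 1 with the 6 libraries, and the 6 libraries gave 1081 genes between the lines with WA. Leaving out 1 library gave 821 to 2107 genes (1 to 2 of the 8) between the untreated lines, 950 to 2396 (0 to 3) for WA in MM1R, 726 to 1621 (0 to 1) for WA in MM1S and 811 to 2948 between the lines with WA. The causes were not tested.

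Signs turned only for log2 values that were not called. Between the untreated lines, NCOA1 and CREBBP became 0.0131 and 0.0415 with the length offset, CREBBP and EP300 0.0752 and 0.00719 without MM1R passage 7, and CREBBP 0.0351 without MM1S passage 16. With WA in MM1R, NR3C1 became 0.0204 under the 10-read filter and 0.139 without passage 7, and NCOA3 -0.0242 without passage 7. With WA in MM1S, NCOA3 became -0.00285 with the length offset. The difference between lines in the WA response became -0.0567, -0.0844 and -0.0294 for NCOA2, NCOA3 and NCOR1 without MM1R passage 7, and -0.0762, -0.0862 and -0.0703 for NCOA1, NCOA3 and NCOR1 without MM1S passage 16. Between the lines with WA, NCOA1 became 0.00563 under that filter and 0.0191 with the length offset, and EP300 -0.0199 without MM1S passage 16. With single libraries left out, values ran between the untreated lines from -0.112 to 0.0066 for NCOA1, -0.161 to 0.305 for NCOA3, -0.144 to 0.0743 for CREBBP and -0.299 to 0.0061 for EP300. For WA in MM1R they ran from -0.21 to 0.116 for NR3C1, -0.0216 to 0.372 for NR3C2 and -0.125 to 0.341 for NCOA3, and in MM1S from -0.302 to 0.172, -0.275 to 0.0244 and -0.0248 to 0.237 for the same genes. The difference in response ran from -0.196 to 0.28 for NR3C1, -0.0456 to 0.11 for NCOA1, -0.169 to 0.238 for NCOA2, -0.187 to 0.281 for NCOA3 and -0.0725 to 0.14 for NCOR1. Between the lines with WA it was -0.0838 to 0.0718 for NCOA1, -0.0328 to 0.146 for CREBBP and -0.0774 to 0.1 for EP300.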
